A study of Caenorhabditis elegans with 2 samples.

Results

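The nuclear genes of the mitochondrial respiratory chain and its ATP synthase were examined for binding of ZTF-11, a zinc finger protein of the MyT1 family, in third-stage (L3) larvae of Caenorhabditis elegans. Every nuclear protein-coding gene of the WBcel235 annotation with a name starting nuo-, sdha-, sdhb-, cyc-, ucr-, cox- or atp- was taken, which gave 37 of 19973 genes. For each, the strongest peak with its summit within 1000 bp of the annotated 5′ end was read from 4 peak lists on ce11, which is the same assembly as WBcel235. The name rule used no binding value. It also left out chain genes with other names, which are described as a separate list near the end.

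Chromatin immunoprecipitation and sequencing (ChIP-seq) used whole animals of mixed sex of strain OP236, in which the transgene wgIs236 supplies eGFP-tagged ztf-11 and the chromosomal unc-119 gene carries the ed3 allele. The antibody is given in the labels as ztf-11, and the fragment size range as 150 to 350. There were 2 biological replicates of this 1 group, so no contrast between conditions could be made. All animals carried the transgene and the allele, and a peak reports the tagged protein summed over all tissues of the larva. The deposited lists hold no read numbers, so the depth behind each list is unknown, and they hold no expression values against which a tissue could be checked.

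The respiratory chain passes electrons from NADH through complex I, and from succinate through complex II, to ubiquinone, then through complex III and cytochrome c to complex IV, where oxygen is reduced. The protons pumped on the way drive the ATP synthase. Most of the subunits, and all of the assembly factors described here, are encoded in the nucleus and imported into mitochondria. In C. elegans, chain genes are known for their effects on growth rate and lifespan, and ZTF-11 is known for a part in neurogenesis, where it represses non-neuronal genes.

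The sequences at 3 of the peaks are shown because these are the pooled or thresholded peaks at chain genes on chromosomes III and IV. They were read from the RefSeq copy of WBcel235, 5′ to 3′ on the strand of the gene. Capitals mark coding sequence of the named gene and copies of AAGTTT or its reverse complement AAACTT, the element that MyT1 family proteins of vertebrates are known to bind. The cyc-2.1 window (chrIV:4748452-4748751, minus strand) and the atp-2 window (chrIII:5228666-5228965, plus strand) are centred on summits of the pooled list. The cox-6B window (chrIII:2785949-2786199, plus strand) holds the summit of a thresholded peak and was shortened to leave out transcribed untranslated sequence. The cox-6B window was chosen after its values were seen.
cyc-2.1: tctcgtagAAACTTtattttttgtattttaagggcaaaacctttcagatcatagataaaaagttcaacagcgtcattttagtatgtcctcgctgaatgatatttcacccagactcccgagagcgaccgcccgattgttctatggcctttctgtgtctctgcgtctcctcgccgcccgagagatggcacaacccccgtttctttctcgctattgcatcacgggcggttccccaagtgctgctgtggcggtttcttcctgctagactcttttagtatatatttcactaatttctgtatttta
atp-2: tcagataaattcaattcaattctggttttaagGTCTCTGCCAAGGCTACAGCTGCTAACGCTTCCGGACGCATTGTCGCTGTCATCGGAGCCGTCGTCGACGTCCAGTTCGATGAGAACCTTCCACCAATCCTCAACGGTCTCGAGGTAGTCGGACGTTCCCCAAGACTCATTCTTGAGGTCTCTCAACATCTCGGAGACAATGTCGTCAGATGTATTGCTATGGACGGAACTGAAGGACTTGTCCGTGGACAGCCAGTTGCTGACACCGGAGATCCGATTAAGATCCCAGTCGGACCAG
cox-6B: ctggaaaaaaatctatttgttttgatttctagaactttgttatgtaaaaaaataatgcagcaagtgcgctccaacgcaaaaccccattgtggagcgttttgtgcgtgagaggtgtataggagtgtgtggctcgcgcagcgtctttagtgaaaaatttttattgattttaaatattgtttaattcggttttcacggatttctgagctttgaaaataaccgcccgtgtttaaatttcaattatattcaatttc
The cyc-2.1 window lies in an intron and had 1 copy of the element, starting at base 9. The atp-2 window is mostly exon, with 268 of its 300 bases coding and a GC content of 51.3%. The cox-6B window had a GC content of 35.1% and held no coding base of the gene. Neither the cox-6B nor the atp-2 window contained the element in either spelling. A window without these letters says nothing on whether the protein was bound there. No stretch of 32 bases from the peaks at these 3 genes occurred elsewhere in the genome on either strand (0 of 289 or 329 stretches per peak).

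More of the 37 chain genes had a peak than the genome-wide share gives in each of the 4 lists, but by small numbers of genes. In the replicate 1 list, which is long and permissive, 20 of 37 genes had a peak (54.1%, exact Clopper-Pearson 95% interval 36.9 to 70.5), against 48.9% of all nuclear protein-coding genes. In the replicate 2 list 4 genes did (10.8%, interval 3.03 to 25.4), against 4.81%. In the list called on pooled reads of both replicates 4 genes did (10.8%, interval 3.03 to 25.4), against 1.58%. In the list passing the authors' IDR (irreproducible discovery rate) step, called thresholded here, 1 gene did (2.70%, interval 0.0684 to 14.2), against 0.205%. The pooled list is labelled as peaks and background for input to the IDR step, so an entry in it need not be a binding site. An entry in a replicate list need not be one either, since many had weak support from the authors' caller, as given below.

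At the genome-wide shares, 37 genes would hold 18.1, 1.78, 0.584 and 0.0760 genes with a peak in the same order of lists. The replicate 1 share was therefore near its background, and the other 3 counts rest on 1 to 4 genes each. The genome-wide share lay inside the interval for replicate 1, for replicate 2 and for the thresholded list, and below it for the pooled list. These intervals cover counting error only, genes are not replicates of a condition, and neighbouring genes can share 1 peak.

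**Figure D1:**
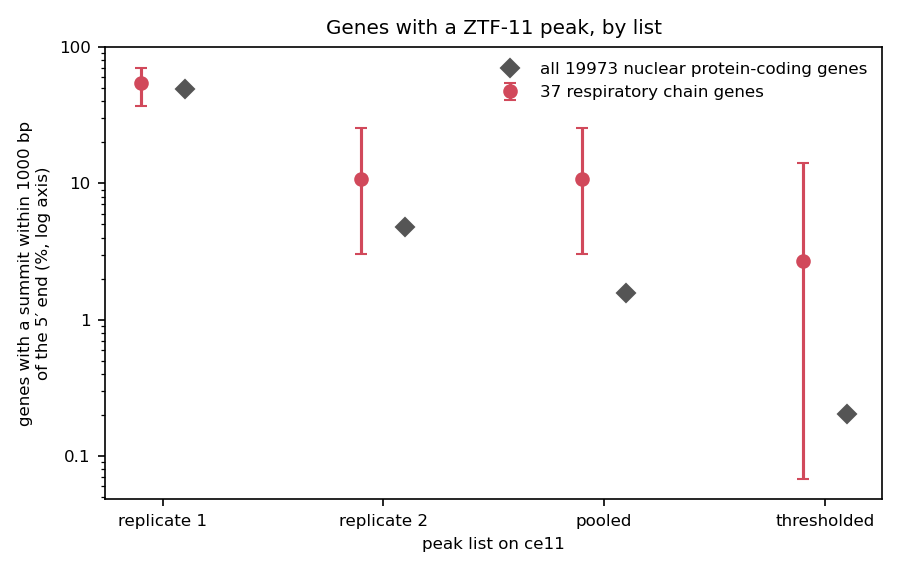
Share of genes with a summit within 1000 bp of the 5′ end in each ce11 list (log axis, percent). Circles are the 37 respiratory chain genes with exact 95% intervals and diamonds are all 19973 nuclear protein-coding genes; the circle lies above the diamond in each list, from 54.1% against 48.9% in replicate 1 to 2.70% against 0.205% in the thresholded list.

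The lists differ in length, which sets how much a peak in each says. The replicate 1 list held 30000 peaks and reached 9764 genes, while the replicate 2 list held 2036 peaks and reached 960. The pooled list held 631 peaks at 315 genes and the thresholded list 96 peaks at 41 genes. Strength is given by the authors' signal score per peak, whose scale is not stated, and by its rank within its own list, where rank 1 is the strongest. The −log10 q-value of the authors' caller is added for the main peaks, where a larger value is stronger support and 0 is a q of 1. In replicate 1 it was above 1 only at cox-5B, cyc-2.1, atp-2, ucr-2.3 (1.05) and cox-6A (1.03) among the chain genes. The lowest value there was 0.19, at ucr-1. In replicate 2 it ran from 0.03 at cyc-2.1 to 0.40 at cox-5A. Most of the chain gene peaks counted in these 2 lists were thus weakly supported. Scores were not compared between lists.

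Complex IV, the cytochrome c oxidase, held the only chain gene in the thresholded list by annotated 5′ ends. This was cox-5B (WBGene00000371, chrI:9788725-9790050, plus strand), which encodes one of the nuclear subunits around the catalytic core. Its replicate 1 peak had a score of 38.3 and ranked 11 among 30000, with a −log10 q of 2.16 and a rank of 6 among the 9764 genes with a peak. The pooled and thresholded lists carried a peak at the same place (chrI:9788504-9788823), with a score of 46.9, rank 59 in each and a −log10 q of 1.22.

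The cox-5B summit lay 61 bp upstream of the 5′ end in all 3 lists, with no other protein-coding 5′ end closer. The divergent neighbour tba-1, an alpha-tubulin gene, starts over 1000 bp away on the opposite strand. No replicate 2 peak lay within the window at cox-5B, and the nearest one was 2101 bp downstream of the 5′ end, at rank 1108. The strongest chain gene of replicate 1 was thus not found at this place in replicate 2, although the peak passed into the thresholded list. Among all genes with a thresholded peak, 34 of 41 (82.9%) also had a replicate 2 peak in the window.

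**Figure D2:**
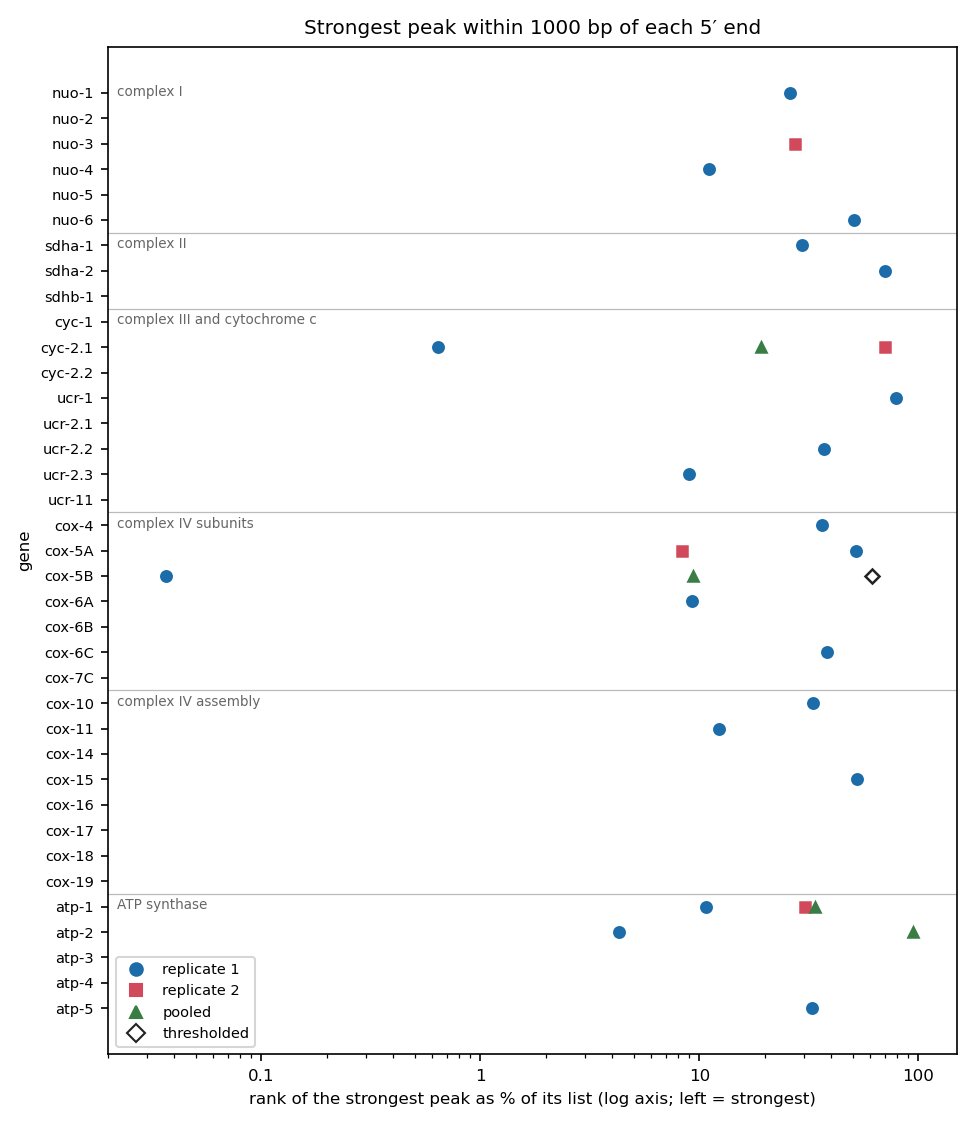
Rank of the strongest peak in the 1000 bp window of each of the 37 genes, as a percent of its own list (log axis, strongest at the left), grouped by complex; symbols give the 4 lists and a row with no symbol is a gene with no peak. The replicate 1 point of cox-5B stands at 0.0367% and that of cyc-2.1 at 0.637%, while the other replicate 1 points lie between 4.28% and 78.9%.

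The subunit gene cox-5A (WBGene00012553, chrIII:12905491-12906619, plus strand) had the highest replicate 2 score of the chain genes by their annotated 5′ ends, 21.8 at rank 170 of 2036, with a −log10 q of 0.40. Its summit lay 306 bp upstream. In replicate 1 the only peak in the window of cox-5A had a score of 8.72, rank 15502, and lay 920 bp downstream of the 5′ end in the 3′ UTR. These peaks of the replicates did not overlap, and no pooled peak was listed within 5000 bp. Weak peaks past the window overlapped at the 3′ end of the gene, with summits at 1423 bp in replicate 1 (rank 22192) and 1260 bp in replicate 2 (rank 1964).

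The subunit gene cox-6B (WBGene00022170, chrIII:2699663-2786859, plus strand) was counted as having no peak, because its annotated 5′ end is that of a long transcript 86539 bp upstream of the start of its short transcript at 2786202. At the short start, a peak was present in every list. Replicate 1 had a score of 8.65 at rank 15842, with the summit 137 bp upstream of that start. Replicate 2 had a score of 37.2 at rank 46, with the summit 138 bp upstream and a −log10 q of 1.98. The pooled and thresholded lists had a score of 49.3 at rank 52 (chrIII:2785913-2786232), with the summit 129 bp upstream and a −log10 q of 1.31.

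The cox-6B locus was therefore high in replicate 2 and in the middle of the replicate 1 list. In contrast, cox-5B was near the top of the replicate 1 list and had no replicate 2 peak in its window. RefSeq places the start of cox-6B at the short transcript, and with RefSeq starts the counts over the 37 genes became 21 in replicate 1, 5 in replicate 2, 5 in the pooled list and 2 in the thresholded list. The matching shares of all genes with a RefSeq start were 48.9%, 4.78%, 1.59% and 0.215%. The RefSeq starts were tried after the values had been seen. The same pooled summit lay 779 bp upstream of nduc-2, a complex I gene on the same strand, and close to the divergent gene Y71H2AM.20, so the peak cannot be assigned to 1 of the 3 genes.

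The remaining complex IV subunit genes had replicate 1 peaks only or none. The strongest was at cox-6A, with a score of 14 at rank 2781 and the summit 815 bp upstream; a weaker summit lay 27 bp into the gene, at rank 14442. cox-4 had a score of 9.92 at rank 10901 in a coding exon, and cox-6C had 9.74 at rank 11447, 171 bp upstream. No list had a peak in the window of cox-7C. In all, 5 of the 7 complex IV subunit genes had a replicate 1 peak.

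Of the 8 genes for assembly of complex IV, 3 had a replicate 1 peak in the window and none had one in the other lists. cox-11, whose product delivers copper to the enzyme, had a score of 13.2 at rank 3704, but its summit, 446 bp upstream, lay nearer to the 5′ end of JC8.4, at 203 bp. The heme synthesis genes cox-10 and cox-15 had scores of 10.2 at rank 9917 and 8.68 at rank 15707, both in coding exons. cox-14, cox-16, cox-17, cox-18 and cox-19 had none.

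Among the 8 genes of complex III and cytochrome c, cyc-2.1 had a peak in 3 lists. It encodes cytochrome c, the mobile carrier between complexes III and IV (WBGene00017121, chrIV:4747895-4749012, minus strand). Replicate 1 gave a score of 21.9 at rank 191, with a −log10 q of 1.74 and the summit 372 bp downstream of the 5′ end. Replicate 2 gave 15.5 at rank 1432, 449 bp downstream, with a −log10 q of 0.03. The pooled list gave 38.6 at rank 121, 410 bp downstream, with a −log10 q of 0.84 (chrIV:4748442-4748761).

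The peaks at cyc-2.1 overlapped, by 263 bp between the replicates, and all 3 summits lay in an intron of the long transcript. Measured from the short transcript, which starts at 4748449, the summits were 191, 114 and 153 bp upstream in replicate 1, replicate 2 and the pooled list. The replicates thus gave the same place near the top of the replicate 1 list and in the lower part of the replicate 2 list. A stronger peak stood just outside the window, on the far side of the ribosomal protein gene rpl-20, with a score of 48.7 at rank 32 in replicate 2 and its summit 1038 bp upstream of cyc-2.1. The pooled and thresholded lists held the same peak with a score of 70.2 at rank 34, above the cox-5B peak in both, and its summit was 187 bp from the divergent gene Y17G9B.5. In replicate 1 the summit there, 1042 bp upstream, ranked 856.

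The core protein gene ucr-2.3 had the highest replicate 1 score in the window among the ucr genes, 14.1 at rank 2677, in a coding exon 676 bp from the 5′ end. ucr-2.2, another core protein 2 gene, had 9.84 at rank 11143 in the window, with a stronger replicate 1 summit, 22.2 at rank 177, past it at 1090 bp. ucr-1, core protein 1, had 7.22 at rank 23669, the lowest among the 20 chain genes with a replicate 1 peak. The third gene for core protein 2, ucr-2.1, had no peak in the window, but a replicate 1 summit with a score of 17.1 at rank 982 lay at 1026 bp. The small subunit gene ucr-11 likewise had peaks just outside, 1227 bp upstream, at rank 557 in replicate 2 and rank 156 in the pooled list. cyc-1, which encodes cytochrome c1, and cyc-2.2, the other cytochrome c gene, had none.

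These genes show how the 1000 bp limit acts. Just inside it, atp-5 was counted from a replicate 1 summit 950 bp upstream at rank 9806. Just outside it were ucr-2.1 at 1026 bp, a weak further summit of nuo-6 at 1036 bp (rank 16481), the upstream peak of cyc-2.1 at 1038 to 1042 bp, ucr-2.2 at 1090 bp, and atp-4, with a score of 10.3 at rank 9832, at 1082 bp.

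**Figure D3:**
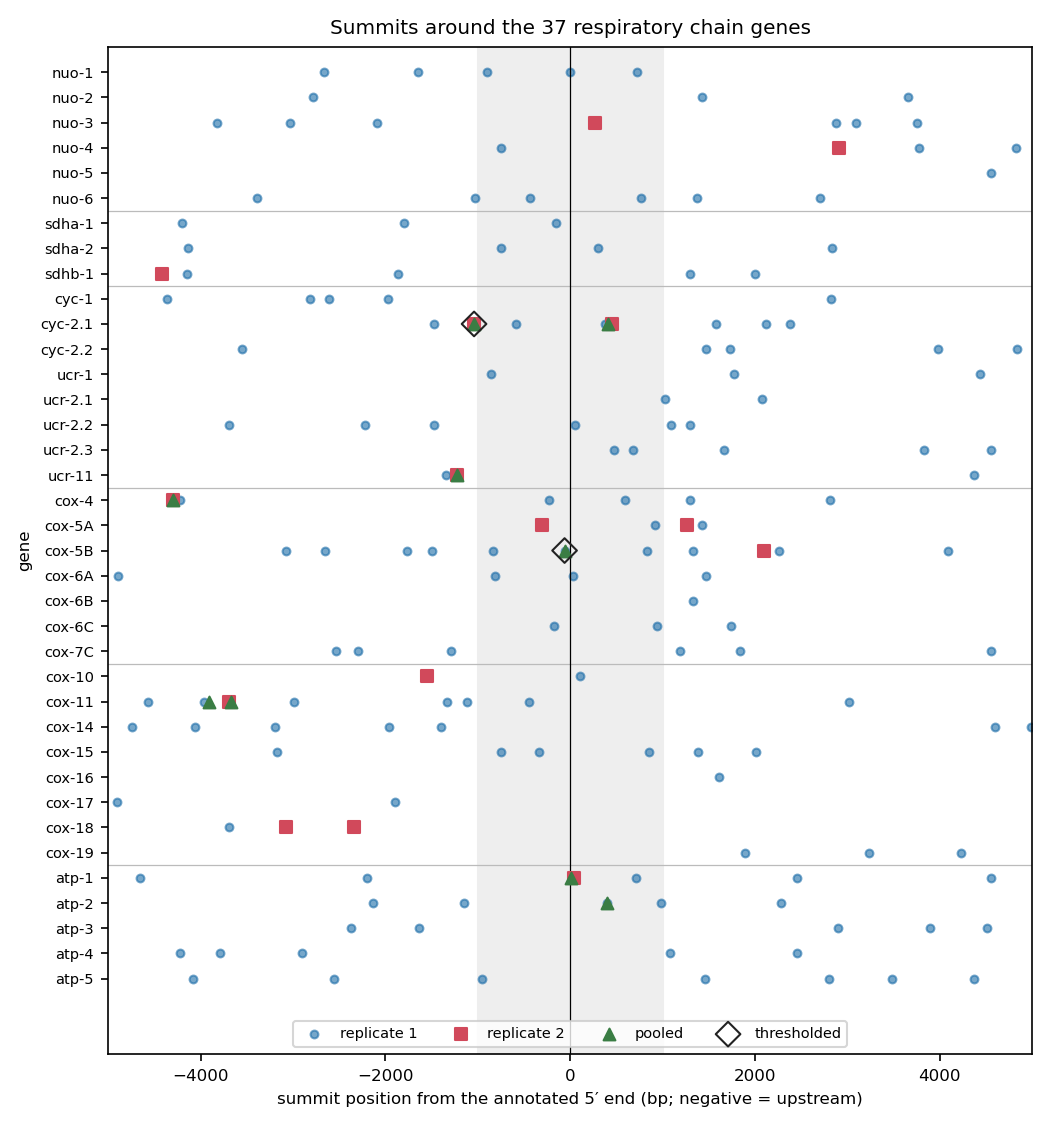
Summits of all 4 lists within 5000 bp of the annotated 5′ end of each gene (horizontal axis in bp, negative is upstream), with the 1000 bp window shaded. Replicate 1 summits are spread across the whole range; in the shaded window, replicate 2 summits stand at nuo-3, cyc-2.1, cox-5A and atp-1, and pooled summits at cyc-2.1, cox-5B, atp-1 and atp-2.

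The ATP synthase genes atp-1 and atp-2 encode the alpha and beta subunits of its catalytic head. atp-1 (WBGene00010419, chrI:12652277-12654655, plus strand) had overlapping peaks in both replicates and the pooled list, on its 5′ end. The score was 13.6 at rank 3203 in replicate 1 (−log10 q 0.95), with the summit at 18 bp. It was 17.8 at rank 618 in replicate 2 (−log10 q 0.11), at 41 bp, and 32.7 at rank 213 in the pooled list (−log10 q 0.40), at 4 bp. The 3 summits lay in the 5′ UTR within 41 bp of the 5′ end, the closest placement of any chain gene found in both replicates. The divergent gene mcrs-1 starts 190 bp upstream of atp-1.

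atp-2 (WBGene00000229, chrIII:5228417-5230536, plus strand) had the third-ranked replicate 1 peak of the chain genes in the window, with a score of 16.3 at rank 1283 and a −log10 q of 1.37. Its summit lay 399 bp inside the gene, in the third exon. The pooled list had the same peak with a score of 26.7, near its end at rank 594 of 631, and a −log10 q of 0.02. No replicate 2 peak was found in its window or within 5000 bp. atp-5, a gene of the stalk, had a replicate 1 peak of score 10.3, and the stalk genes atp-3 and atp-4 had none.

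**Figure D4:**
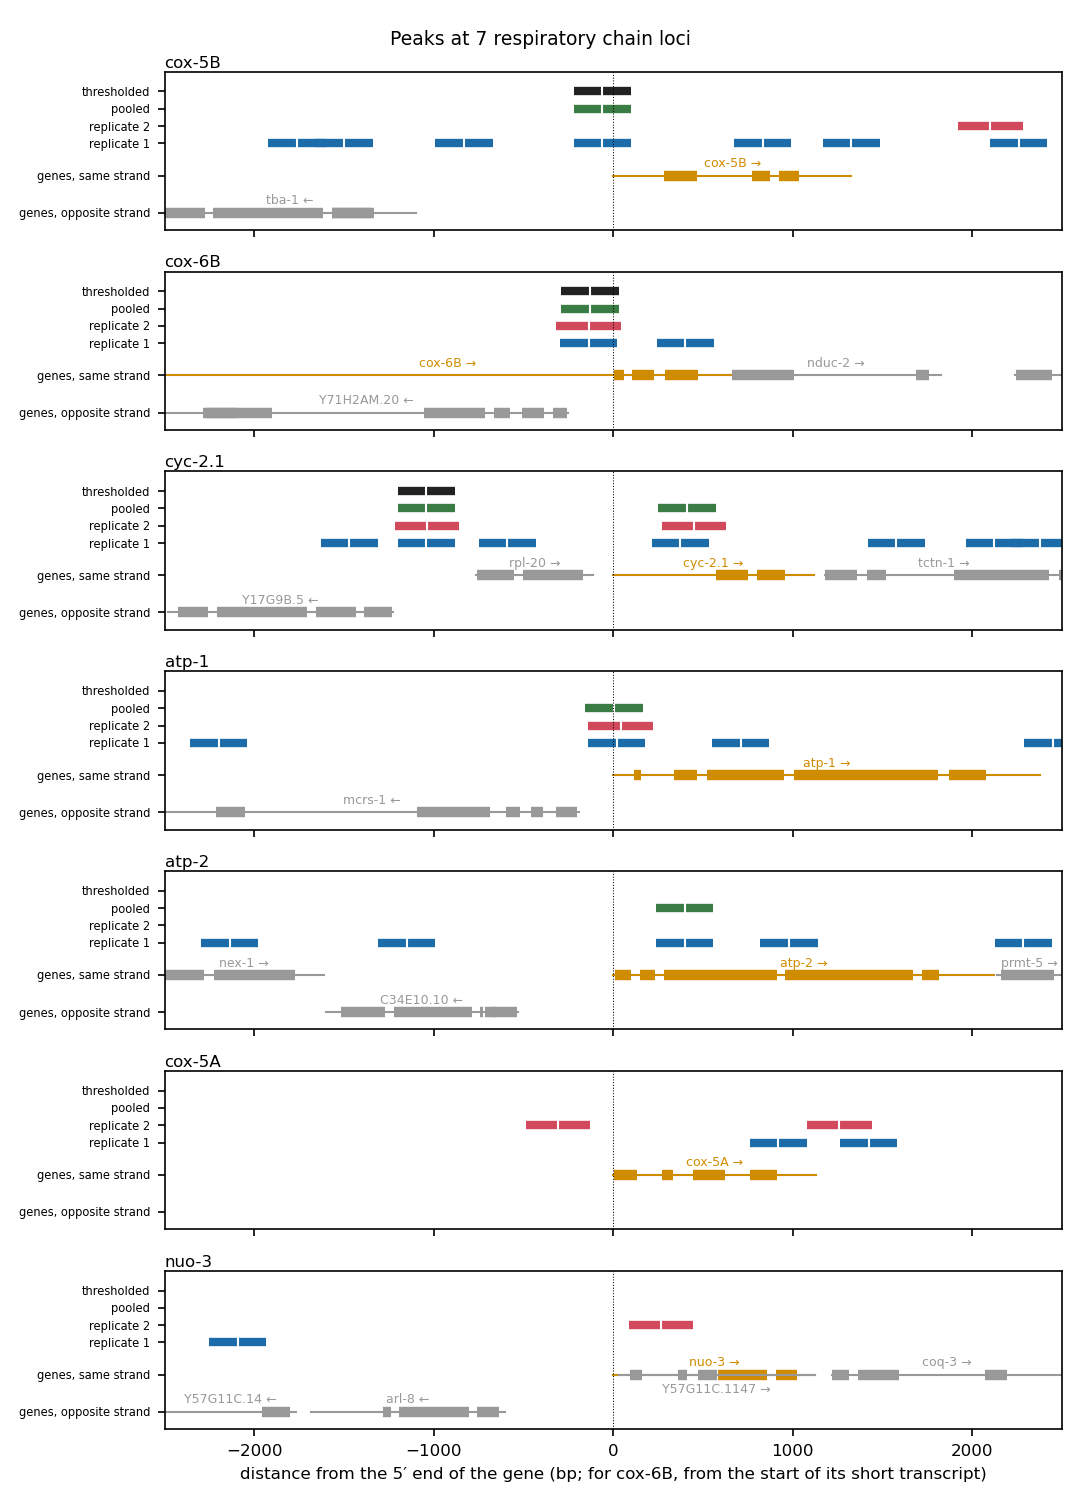
Peaks of the 4 lists (bars, with the summit as a white tick) over the annotated genes at 7 loci, drawn by distance in bp from the 5′ end of the gene and, for cox-6B, from its short transcript; thick bars are coding exons and arrows give strand. The cox-5B peak is absent from replicate 2, the cox-6B peak is present in all 4 lists, and the strongest replicate 1 and replicate 2 peaks within 1000 bp of the cox-5A 5′ end lie apart.

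Complex I, which oxidises NADH, had 3 of its 6 nuo genes with a replicate 1 peak. nuo-4, an accessory subunit gene, had the highest score, 13.5 at rank 3329, with the summit 744 bp upstream. nuo-1, which encodes the flavoprotein that takes electrons from NADH, had 11 at rank 7757, but that summit was nearer to the ribosomal protein gene rpl-36.A, at 268 bp. nuo-6, another accessory subunit gene, had 8.79 at rank 15225, nearer to tofu-5. The iron-sulfur subunit gene nuo-5 and the subunit gene nuo-2 had no peak in any list.

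nuo-3, an accessory subunit gene (WBGene00013308, chrIV:14796419-14797544, minus strand), was the 1 chain gene with a peak in replicate 2 and none in replicate 1. Its score was 18 at rank 554, with a −log10 q of 0.12 and the summit 265 bp downstream. An overlapping protein-coding gene on the same strand, the divergent gene arl-8, at 870 bp, and the ubiquinone synthesis gene coq-3, at 955 bp, share this peak.

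Complex II, succinate dehydrogenase, had replicate 1 peaks at both flavoprotein genes and none elsewhere. sdha-1 had a score of 10.6 at rank 8854, 152 bp upstream. sdha-2 had 7.66 at rank 21052, with the summit 750 bp upstream. That summit lay in a coding exon of the complex I gene ndua-13, 721 bp downstream of its 5′ end. The iron-sulfur subunit gene sdhb-1 had none in the window, in any list.

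Across complexes, replicate 1 peaks were found at 3 of 6 complex I genes, 2 of 3 complex II genes, 4 of 8 complex III and cytochrome c genes, 5 of 7 complex IV subunit genes, 3 of 8 complex IV assembly genes and 3 of 5 ATP synthase genes. With 3 to 8 genes each, every one of these shares had an exact interval that held the 48.9% of all genes. The 17 chain genes with no replicate 1 peak were spread over all 6 groups and begin, by name, with atp-3, atp-4, cox-14, cox-16 and cox-17.

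Agreement between the replicates was limited at the chain genes. The genes with a peak in both replicate lists were cyc-2.1, atp-1 and cox-5A, which are 3 of 37 (8.11%, interval 1.70 to 21.9), against 3.11% of all genes. The peaks overlapped at 2 of them, cyc-2.1 and atp-1 (5.41%, interval 0.661 to 18.2), against 1.72%. Of the 4 chain genes with a pooled peak, 4 also had a replicate 1 peak and 2 a replicate 2 peak. Over all 315 genes with a pooled peak, 95.2% had a replicate 1 peak and 53.3% a replicate 2 peak, so the chain genes stood near the rest.

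Where chain genes had a peak, the median strength of the strongest one was somewhat above the middle of the genes with a peak. In replicate 1 the median percentile over the 20 genes was 62.9, on a scale where the middle of all 9764 genes is the 50% point. Of the 20, 15 were in the top 50%, 8 in the top 25%, 3 in the top 10% and 2 in the top 1%. The 2 in the top 1% were cox-5B and cyc-2.1, and atp-2 made the third in the top 10%. In replicate 2 the median over 4 genes was 67.6, from cyc-2.1 at 25.9 to cox-5A at 91.0. Within the stronger 50% of that list, with percentiles taken anew, the median over 3 genes was 42.9, below the middle.

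**Figure D5:**
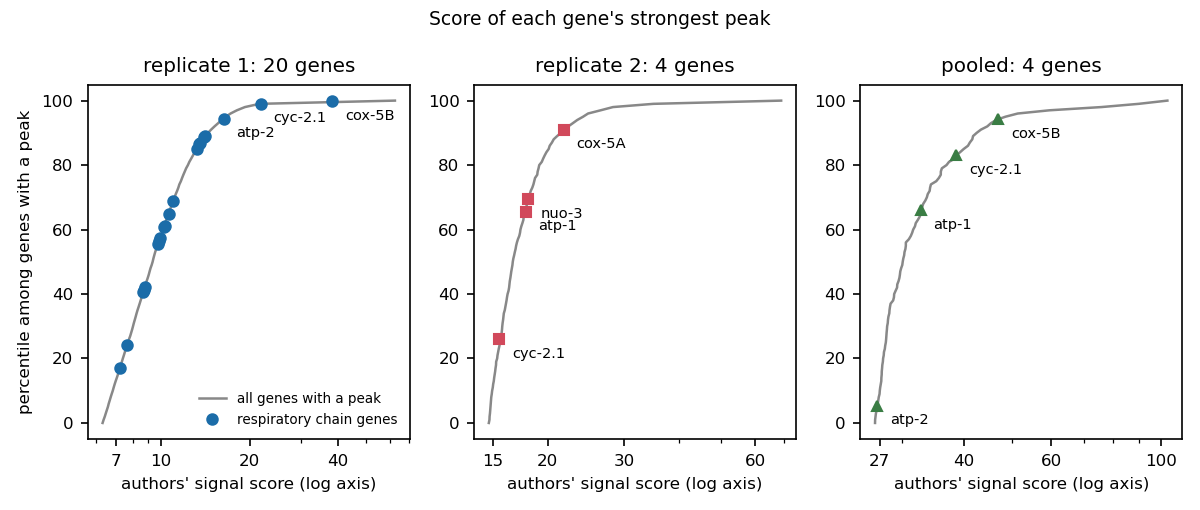
Authors' signal score (log axis) of the strongest peak of each gene against its percentile among all genes with a peak in that list; the grey line is all genes and the symbols are chain genes. Chain genes run along most of the replicate 1 curve, from ucr-1 at percentile 16.9 to cox-5B at 99.9, and the 4 pooled genes run from atp-2 at 5.40 upward.

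In the replicate 1 list, 12 of the 37 chain genes had 2 or more peaks in the window (32.4%, interval 18 to 49.8), against 13.2% of all genes. nuo-1, cox-5B and cox-15 had 3 each. The chain genes also had close neighbours, since 62.2% had another protein-coding 5′ end within 1000 bp, against 23.5% of all genes. With such a neighbour, 30.4% of chain genes had 2 or more replicate 1 peaks against 16% of all such genes, and without one 35.7% against 12.3%. The chain gene was the nearest protein-coding 5′ end to its own strongest replicate 1 summit in 14 of 20 cases, against 86.7% for all genes. Upstream summits made up 55.0% of the 20, against 43.8%, and the median distance to the 5′ end was 521 bp, against 488 bp.

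Sequence composition at the chain promoters was close to that of other genes. From 250 bases before the 5′ end to 50 after it, the median GC content was 35%, against 34.3% over all genes. The letters AAGTTT or AAACTT occurred in 19 of 37 such windows (51.4%), against 41.6% of all genes. They occurred in 9 of the 20 with a replicate 1 peak (45.0%) and 10 of the 17 without one (58.8%). Over all genes these 2 shares were 40.6% and 42.6%. Within 100 bp of the strongest replicate 1 summits they occurred at 4 of 20 chain genes, against 23.1% of all 30000 peaks. They occurred at none of the 4 replicate 2 summits, against 34.5% of the 2007 nuclear peaks, and at none of the 4 pooled summits, against 19.4% of 607. The single thresholded summit at cox-5B had none either, against 12.3% of 73. Median GC content within 100 bp of the summit was 46.0% at the chain genes and 40.8% at all peaks in replicate 1, 46.5% and 33.8% in replicate 2, and 52.5% and 42.8% in the pooled list. In these summit comparisons, all peaks means nuclear peaks at any distance from a gene. Position and gene set therefore cannot be told apart in them.

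Other genes of the pathway, 36 in all, covered further genes of complexes I to III and the ATP synthase, not all for subunits. Ubiquinone synthesis, cytochrome c and complex IV maturation, the carriers of adenine nucleotides and the uncoupling protein gene ucp-4 were also included. Of these, 19 had a replicate 1 peak (52.8%, against 48.9% of all genes) and 7 a replicate 2 peak (19.4%, interval 8.19 to 36.0, against 4.81%). A pooled peak was found at 1 (2.78%, against 1.58%) and a thresholded peak at none, against 0.205%. The replicate 2 count includes coq-3, through the peak it shares with nuo-3. The strongest in replicate 2 was sco-1, a copper delivery gene of complex IV, with a score of 24.5 at rank 96 and the summit 333 bp upstream. In replicate 1 the strongest sco-1 peak had a score of 21.3 at rank 231, with the summit 97 bp downstream. The peaks of the replicates at sco-1 did not overlap, and it had no pooled peak in the window. Next in replicate 2 was nduf-9, a complex I gene, with 24.1 at rank 102, 241 bp upstream, and it also held the pooled peak, 28.9 at rank 387.

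coq-5, a methyltransferase gene of ubiquinone synthesis, followed with a replicate 2 score of 23.5 at rank 109, 45 bp upstream, and had no replicate 1 peak. These 3 replicate 2 scores were above that of every one of the 37 genes by their annotated 5′ ends. The replicate 2 share of the 36 genes was the highest of the gene lists described here, while their pooled share was below that of the 37, and the difference between the lists was not tested.

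Complex I genes named ndu, 25 in all and partly the same genes as the previous list, included 14 with a replicate 1 peak, 3 with one in replicate 2, 2 in the pooled list and 1 in the thresholded list. The thresholded peak was that of nduc-2, which is the cox-6B peak. The 70 genes for mitochondrial ribosomal proteins are also nuclear but serve translation inside mitochondria. They included 38 with a replicate 1 peak (54.3%), 4 with one in replicate 2 (5.71%), 4 in the pooled list (5.71%) and none in the thresholded list. The shares of all genes are those just given. The replicate 1 share was thus 52.8 to 56.0% in all these lists and in the chain genes, near the 48.9% of all genes. Every exact interval held 48.9%. The interval was 35.5 to 69.6 for other pathway genes, 34.9 to 75.6 for ndu genes and 41.9 to 66.3 for mitochondrial ribosomal protein genes. The lists are not independent, since some genes are in 2 lists and some peaks count for genes of 2 lists.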

How the data were processed

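The 37 genes, and the lists of other pathway, ndu-named and mitochondrial ribosomal protein genes, were chosen with earlier results of these data known. Peak lists on ce11 were used as deposited: per the text records beside the lists, each replicate was called against a control, the pooled list on both replicates against a control, and the thresholded list by IDR from these. No aligner, peak caller, filter or IDR threshold is named in these records. Each list gives the authors' signal score per peak, the authors' -log10 q-value and a summit. Depth is unknown. Lists on ce10 were not used, since no ce10 annotation was at hand.

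Genes and 5′ ends came from Ensembl release 115 (WBcel235), with RefSeq gene starts as an alternative (37 of 37 genes and 19531 of 19973 matched). A gene had a peak if a summit lay within 1000 bp of its 5′ end, and its strongest peak by score was kept. Ranks were taken within a list, percentiles among genes with a peak. Exact 95% Clopper-Pearson intervals were computed with scipy 1.17.1, and tables with pandas 2.3.3, numpy 2.4.6 and Python 3.11.15. The steps were tested on simulated data. No p-values were computed, since the 2 replicates form 1 group.

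Named were all genes with a replicate 2, pooled or thresholded peak, the 5 highest in replicate 1, those without a replicate 1 peak and, of the other pathway genes, those with a pooled peak and the 3 highest in replicate 2. The remaining chain genes were added to account for every one. Alternatives changed the window, the definition of the 5′ end, the peak set and the overlap, and left out each replicate. The sequence of 1 further peak is not reported here.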

Additional observations from a re-analysis of the deposited data

How the results depend on the processing

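Of 56 alternative values, 43 stayed within 1.5 times the reported count or within the spread, and 13 moved. For the median percentile in replicate 2 the spread was 25.9 to 91.0, the full range of its 4 genes, so staying inside it says little. Counts were judged without the change in the share of all genes. At 500 bp, 16 chain genes with a replicate 1 peak counted as unchanged, while the share of all genes fell to 29.5%. With a 2000 bp window, 34 chain genes had a replicate 1 peak in place of 20, while the share of all genes rose from 48.9% to 72.2%. A thresholded peak was then found at 2 chain genes in place of 1 (0.360% of all genes). Peaks in both replicates were found at 5 in place of 3 (6.84% of all genes). Cutting replicate 1 to as many peaks as replicate 2 left 3 genes in replicate 1 (4.21% of all genes) and 1 in both replicates (0.556%). Cutting to as many peaks as the thresholded list left 1 gene in replicate 1 (0.230% of all genes) and 0 in replicate 2 (0.225%). The thresholded count of 1 became 2 when any base of the peak counted (cyc-2.1 added), 2 when any transcript start counted and 2 with RefSeq gene starts, which were chosen after seeing the data (cox-6B added by both), and 0 in the stronger 50% of the list. The shares of all genes were 0.260%, 0.225%, 0.215% (of genes with a RefSeq start) and 0.0651% in the same order. In the stronger 50% of each list, 1 gene had a peak in both replicates (1.14% of all genes). Fewer peaks or a wider window change these counts by construction. Without replicate 1 the count over the remaining list was 4 (4.81% of all genes), and without replicate 2 it was 20 (48.9%). No paired analysis was possible because both replicates belong to 1 group. The lists hold no read numbers, so a gene without a replicate 2 peak cannot be told from one whose peak was missed at lower depth.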
